A study of Mus musculus with 8 samples.

Results

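Tag clusters were examined at 9 chaperone genes of mouse embryonic stem cells, namely the cytosolic HSP90 genes Hsp90aa1 and Hsp90ab1, the HSP90 co-chaperone gene Ptges3, the HSP70-family genes Hspa8, Hspa5, Hspa9 and Hspa4, and the mitochondrial chaperonin genes Hspd1 and Hspe1. A tag cluster is a run of nearby transcription start sites on 1 strand, and its dominant TSS is the position with the strongest signal. A cluster was counted at a gene when its dominant TSS lay on the strand of the gene, between 500 bp upstream of the annotated gene start and the gene end. This gave 100 of 32857 clusters in E14, 101 of 33005 in clone A1 and 102 of 32870 in clone C7.

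E14 is a wild-type embryonic stem cell line, and A1 and C7 are PWWP2A/B double knockout (DKO) lines, each a single clone. PWWP2A and PWWP2B bring a histone deacetylase complex to chromatin marked by H3K36me3, and the comparison asks where transcription starts when both are lost. Nuclear RNA of undifferentiated cells grown on gelatine with LIF was profiled by CAGE-seq, which captures capped 5' ends, in 3 E14, 2 A1 and 3 C7 libraries. The authors merged the libraries of each line, so each line gives 1 set of positions, with no replicate error and no test.

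Chaperones bind unfolded or partly folded proteins and release them in cycles driven by ATP. HSP70 proteins take nascent and misfolded chains, HSP90 proteins act later on clients such as kinases and steroid receptors, and the HSP60 chaperonin encloses proteins in mitochondria. Several of these genes are transcribed strongly in unstressed cells and are raised further by heat shock factor 1 or, in the endoplasmic reticulum, by the unfolded protein response.

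Of the embryonic stem cell markers, 8 of 8 had a promoter cluster in each line, against 0 of 6 markers of differentiated germ layers and 3 of 5 fibroblast markers, Pdgfrb and Lum being the absent ones. Pwwp2a kept 1 promoter and 1 intronic cluster in every line and Pwwp2b had no cluster in any, so cluster positions do not check the knockout. Starts and ends of clusters were nearly the same in the 3 tracks. Of all E14 clusters, 98.3% had exactly the same start and end in A1 and 98.6% in C7. At the 9 chaperone genes, 100 of 100 E14 clusters had the same whole width in every line. The study's methods describe an aggregation of nearby clusters across replicates, and its part in the shared presence of clusters given below was not tested. Whether the bounds were set separately in each line was not tested either.

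Where the chaperone clusters lay depended on which annotated starts were counted. With every GENCODE transcript start and a window of 500 bp, 54 of the 100 E14 clusters were at promoters, 43 were exonic and 3 intronic. With protein-coding transcripts only, 21 were at promoters, 71 exonic and 8 intronic. The clusters that changed category lay near starts annotated for noncoding transcripts inside the genes. Of the 81 clusters outside coding promoters in any line, 34 were promoter clusters with every start counted, while 44 stayed exonic and 3 intronic. The nearest annotated start, at any distance, belonged to a retained intron transcript for 60 and to a protein-coding transcript for 13. It belonged to a small nucleolar RNA for 5 and to a processed transcript for 3. By feature, 71 of the 81 dominant TSSs fell in coding sequence, 3 in noncoding exons, 5 in introns and 2 in the 3' UTR of Ptges3.

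**Figure D1:**
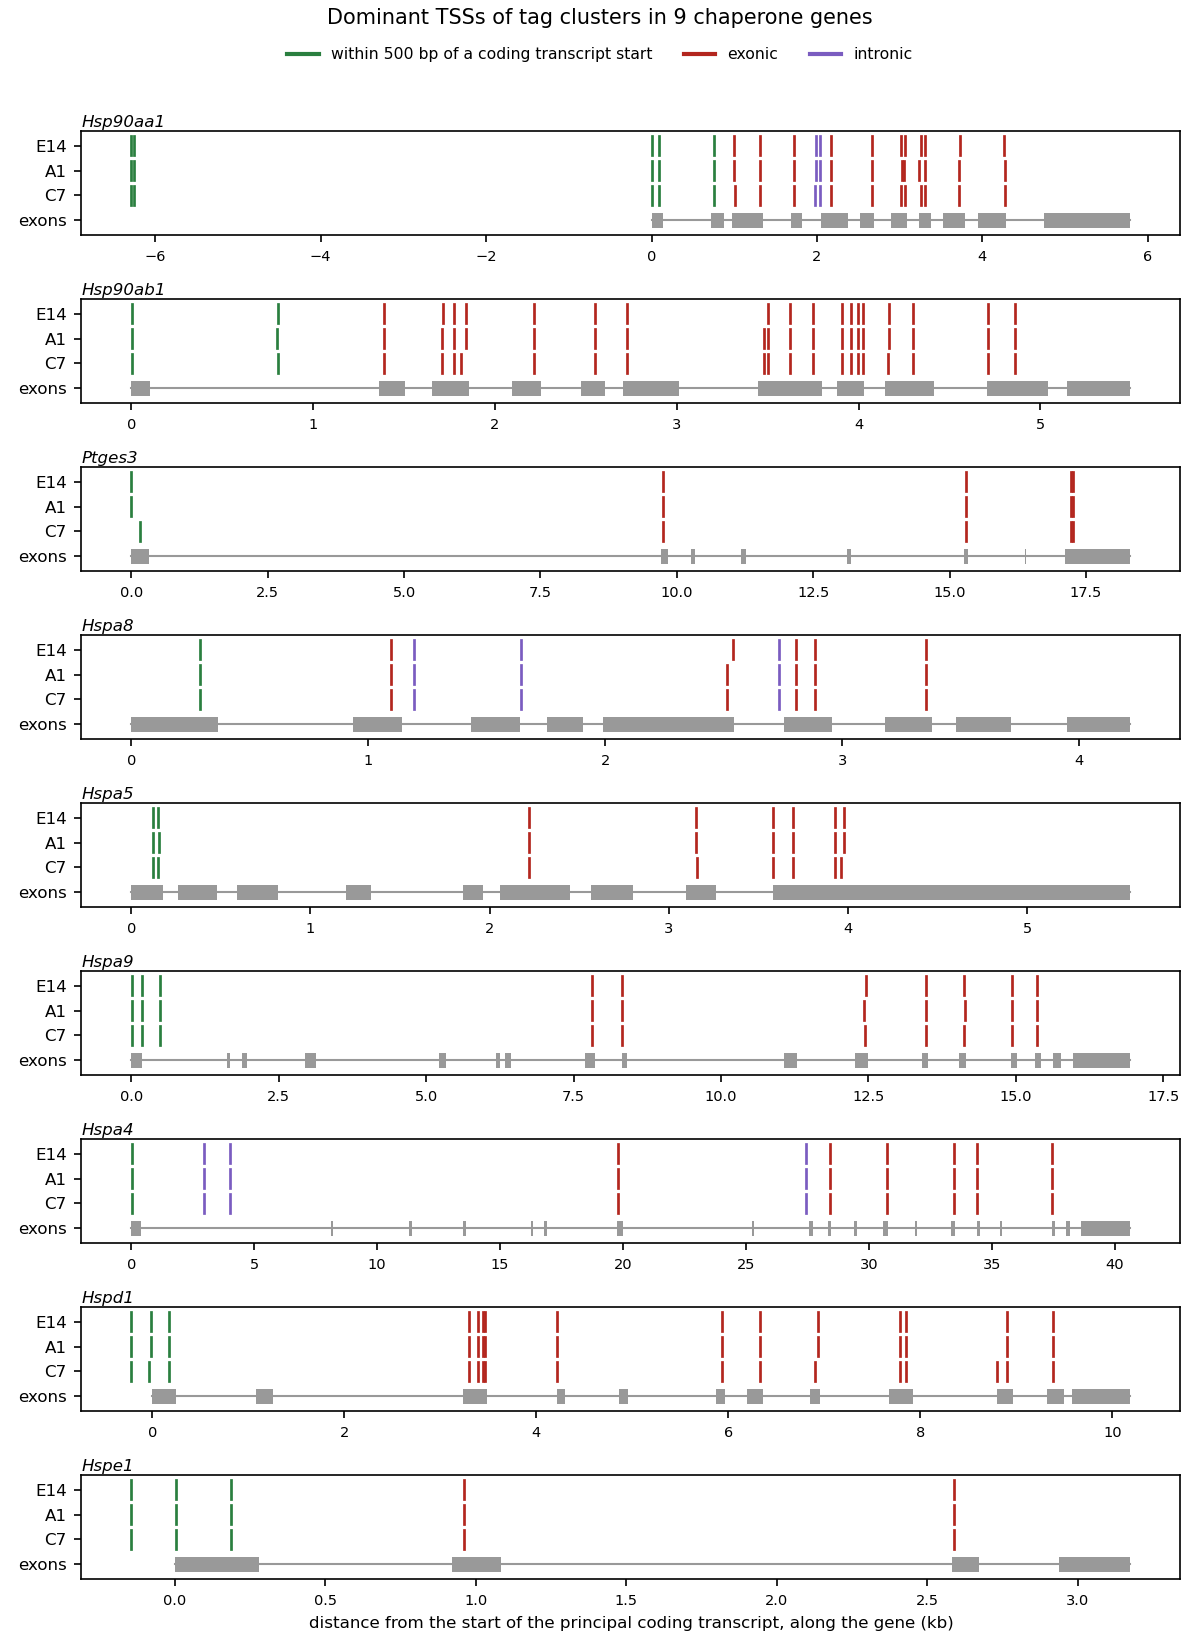
Dominant TSSs of the tag clusters in the 9 genes, as vertical marks for E14, A1 and C7, with the exons of the principal coding transcript as grey boxes below. The horizontal axis gives the distance from the start of that transcript in kb, and colours give the category by coding transcripts. Most red (exonic) marks recur in all 3 lines, and the marks absent from E14 are 1 in Hsp90ab1 and, in C7 alone, 1 in Hspd1.

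Exonic clusters were frequent at the 9 genes in wild-type cells. These genes were chosen with earlier results of these data known, so their shares do not stand for chaperones in general. Of 56 other chaperone and co-chaperone genes with a main promoter cluster, 11 (19.6%) had an exonic cluster in E14 with every start counted. By coding transcripts it was 16 (28.6%). With every start counted, 8 of the 9 genes had an exonic cluster in every line, against 13.2% of the 10536 coding genes with a promoter cluster in E14 and 13.3% in either clone. With coding transcripts only, 9 of 9 had an exonic cluster in each line, against 14%, 14.1% and 14.2%. The exception in the first count was Hspa8, whose 9 clusters all fell within 500 bp of some annotated start. Among the 76 cytosolic ribosomal protein genes, another group of strongly transcribed genes, 27 (35.5%) had an exonic cluster in E14 with every start counted and 52 (68.4%) by coding transcripts. Among 34 proteasome subunit genes with a promoter cluster it was 8 (23.5%) by either count. The median number per gene with every start counted was 4 for the chaperones and 0.0 for ribosomal protein genes, proteasome genes and all coding genes. By coding transcripts it was 6 for the chaperones, 2.0 for ribosomal protein genes and 0.0 for the other groups. Clusters by coding transcripts were also divided by the exon length of every annotated transcript of the gene, promoter windows included. The chaperone median in E14 was then 1.62 per kb and that of ribosomal protein genes 0.798. These rates are therefore not per kb of the exon in which such clusters could be counted. Signal per cluster was not used here, since the deposited scores are 0, so expression was not compared between these groups.

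The number of exonic clusters by coding transcripts was 18 at Hsp90ab1 in E14, 12 at Hspd1, 11 at Hsp90aa1, 7 at Hspa9, 6 at Hspa4, 6 at Hspa5, 5 at Hspa8, 4 at Ptges3 and 2 at Hspe1. Counting the gene itself, 21 coding genes (0.199%) had at least as many as Hsp90ab1, 51 (0.484%) as Hspd1 and 60 (0.569%) as Hsp90aa1. At the other end, 748 coding genes (7.1%) had at least the 2 of Hspe1. With every start counted the order changed. Hspd1 then led with 12, matched or exceeded at 46 coding genes (0.437%), and Hsp90ab1 followed with 7 (110 genes, 1.04%). Hspa4 and Hspa5 had 5 each (199 genes, 1.89%), and Ptges3, Hsp90aa1 and Hspa9 had 4 each (276 genes, 2.62%). Hspe1 kept 2 (673 genes, 6.39%) and Hspa8 had 0. By coding transcripts and per kb of exon of every transcript, Hsp90ab1 had 6.0 exonic clusters, Hspd1 4.54 and Hsp90aa1 2.8. Hspa4, the longest gene at 40644 bp, had 1.09. By coding transcripts, the order of the genes was the same in A1 and C7, where only Hsp90ab1 (19 in both clones) and Hspd1 (13 in C7) differed from E14.

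**Figure D2:**
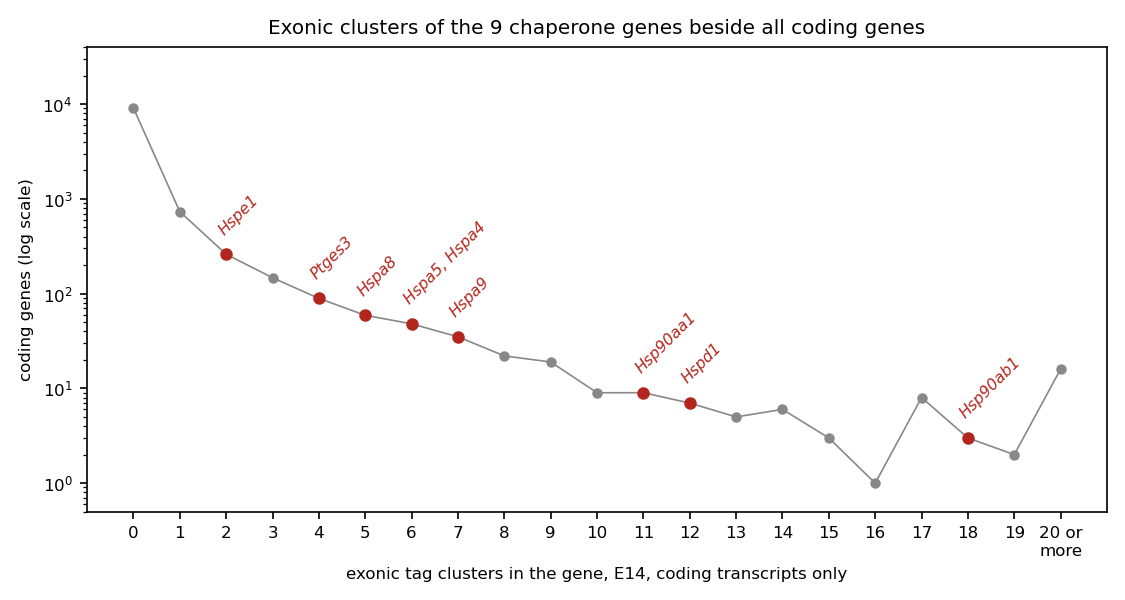
Number of coding genes (vertical, log scale) by number of exonic clusters in E14 (horizontal), over the 10536 coding genes with a promoter cluster, with coding transcripts only. Red points mark the numbers at which the chaperone genes lie, from 2 at Hspe1 to 18 at Hsp90ab1, while 9056 genes had 0.

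The exonic clusters were not all narrow. The interquantile width, the span between quantiles 0.1 and 0.9 of the signal in a cluster, had a median of 12 bp over the 71 exonic chaperone clusters in E14 and ranged from 1 to 103 bp, against a median of 4.0 bp over all exonic clusters. A width of at most 10 bp, called sharp here, was found for 34 of the 71 (47.9%) and for 66.3% of all exonic clusters. The 21 coding promoter clusters of these genes had a median of 11 bp.

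The bases before the dominant TSS differed between exonic and promoter clusters. The following stretches run from 15 bases before to 14 bases after the dominant TSS along the spliced transcript, with the bases 2 and 1 before the TSS and the TSS itself in capitals. They show the coding-sequence cluster with the widest interquantile region in E14 for each gene except Hspa9, whose sequence is not reported here. The exon 2 cluster of Ptges3 is shown as well.
Hsp90aa1, exon 4 (chr12:110694663-110694692, minus strand): gtcgtggaacaaaGGTtatcttgcatctga
Hsp90ab1, exon 4 (chr17:45571044-45571073, minus strand): gcagtatgcctggGAGtcgtctgcgggtgg
Ptges3, exon 6 (chr10:128074235-128074264, plus strand): tgggtggtgatgaGGAtgtagatttaccag
Ptges3, exon 2 (chr10:128068692-128068721, plus strand): ggtacgatcgaagGGActatgtattcattg
Hspa8, exon 6 (chr9:40803773-40803802, plus strand): ctgagaacgttcaGGAtttgctgctcttgg
Hspa5, exon 9 (chr2:34775649-34775678, plus strand): tttgagatagatgTTAatggtattctccga
Hspa4, exon 15, read across a splice junction: acacagagaatgaGGGtaagatgatcatgc
Hspd1, exon 8 (chr1:55081081-55081110, minus strand): accagcttaaagaTATggctattgctactg
Hspe1, exon 2 (chr1:55089079-55089108, plus strand): cgctctttgacagAGTattggttgaaagga

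In these 9 stretches the dominant TSS follows a pair of guanines at Hsp90aa1, Hspa8, Hspa4 and both Ptges3 sites. Over all 71 exonic chaperone clusters of E14, 53 (74.6%) had G directly before the dominant TSS and 40 (56.3%) had GG. In A1 the GG share was 41 of 72 (56.9%) and in C7 46 of 73 (63.0%). Of all positions in the 9 principal transcripts, 6.59% follow GG. By gene, GG preceded 10 of 12 exonic clusters at Hspd1, 6 of 7 at Hspa9, 5 of 6 at Hspa4, 6 of 11 at Hsp90aa1, 3 of 6 at Hspa5, 2 of 4 at Ptges3, 2 of 5 at Hspa8, 6 of 18 at Hsp90ab1 and 0 of 2 at Hspe1. The chaperones were not alone in this. Exonic clusters of all coding genes had GG before the dominant TSS in 64.8% of the 4745 that could be read in E14, 63.9% in A1 and 65.1% in C7.

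Promoter clusters carried other bases. A pyrimidine followed by a purine, the usual initiator step at which RNA polymerase II starts, was found at 13 of 18 chaperone promoter clusters with readable bases in E14 (72.2%), against 4 of 71 exonic ones (5.63%). Over all coding genes the shares were 78.5% at promoters and 10.2% in exons. GG came before the dominant TSS at 2 of the 18 chaperone promoter clusters (11.1%) and at 8.1% of all promoter clusters. The promoter clusters of ribosomal protein genes differed from these. In E14, 42 of 180 readable ones (23.3%) had a pyrimidine followed by a purine and 40 (22.2%) had GG. The shares in their exonic clusters were 4.09% and 57.9%.

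**Figure D3:**
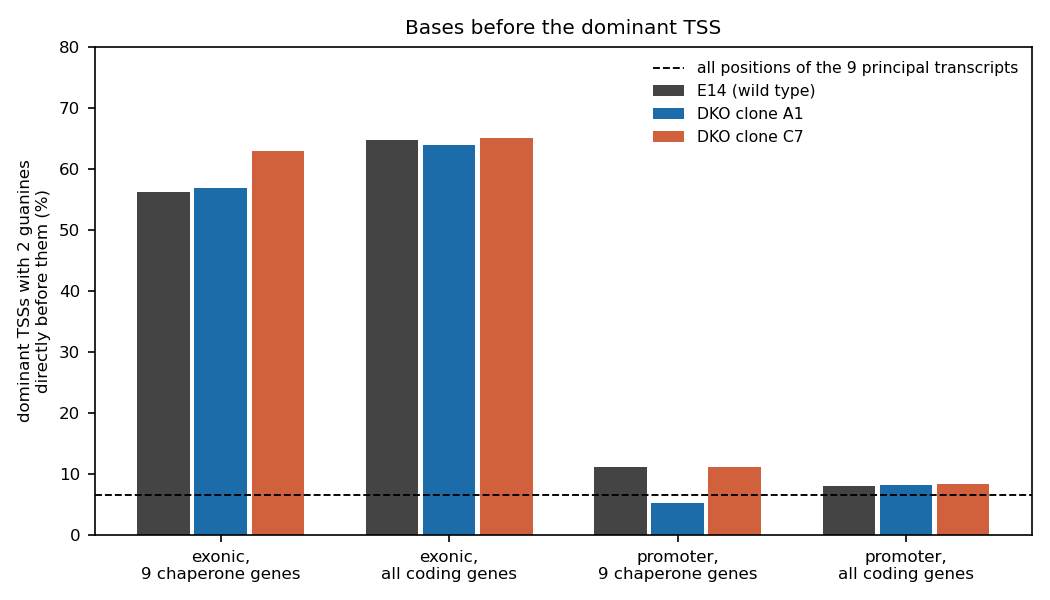
Share of dominant TSSs with 2 guanines directly before them (vertical, percent, from 0) for exonic and promoter clusters, by coding transcripts, of the 9 chaperone genes and of all coding genes. Bars are E14, A1 and C7, and the dashed line is the share over all positions of the 9 principal transcripts, 6.59%. Exonic bars lie between 56.3% and 65.1% and promoter bars between 5.26% and 11.1%.

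Part of the chaperone transcripts is shared with other genes, nearly all of them pseudogenes, and the authors kept unique alignments only. Of windows of 50 bases in the principal transcript, 73.2% at Hspa8 occur exactly in transcripts of 11 other genes, all pseudogenes. The share was 58.5% at Hsp90aa1, 44.8% at Hspd1, 36.1% at Hspe1, 22.2% at Ptges3, 4.49% at Hsp90ab1 and 4.1% at Hspa9, and no window was shared at Hspa4 or Hspa5. Exonic dominant TSSs lay at the start of such a window for 5 of 5 clusters at Hspa8, 8 of 12 at Hspd1, 7 of 11 at Hsp90aa1, 2 of 4 at Ptges3, 1 of 2 at Hspe1, 1 of 18 at Hsp90ab1 and 0 of 7 at Hspa9. The part of shared sequence in the counts was not tested.

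Promoter shape differed among the genes. The main promoter cluster, the one whose dominant TSS lies nearest to the start of a principal coding transcript, was sharp at Hspa8, Hspa5 and Hsp90ab1 and broad at the other 6 genes, in each of the 3 lines. The sharp share was 33.3%, against 21.2% of coding genes for E14, 20.6% for A1 and 20.7% for C7. The median interquantile width over the 9 genes was 54 bp in E14, 52 bp in A1 and 59 bp in C7, against 29.0, 30 and 30.0 bp over all coding genes. Ribosomal protein genes had a median of 7.0 bp in E14, and 64.5% of them were sharp.

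**Figure D4:**
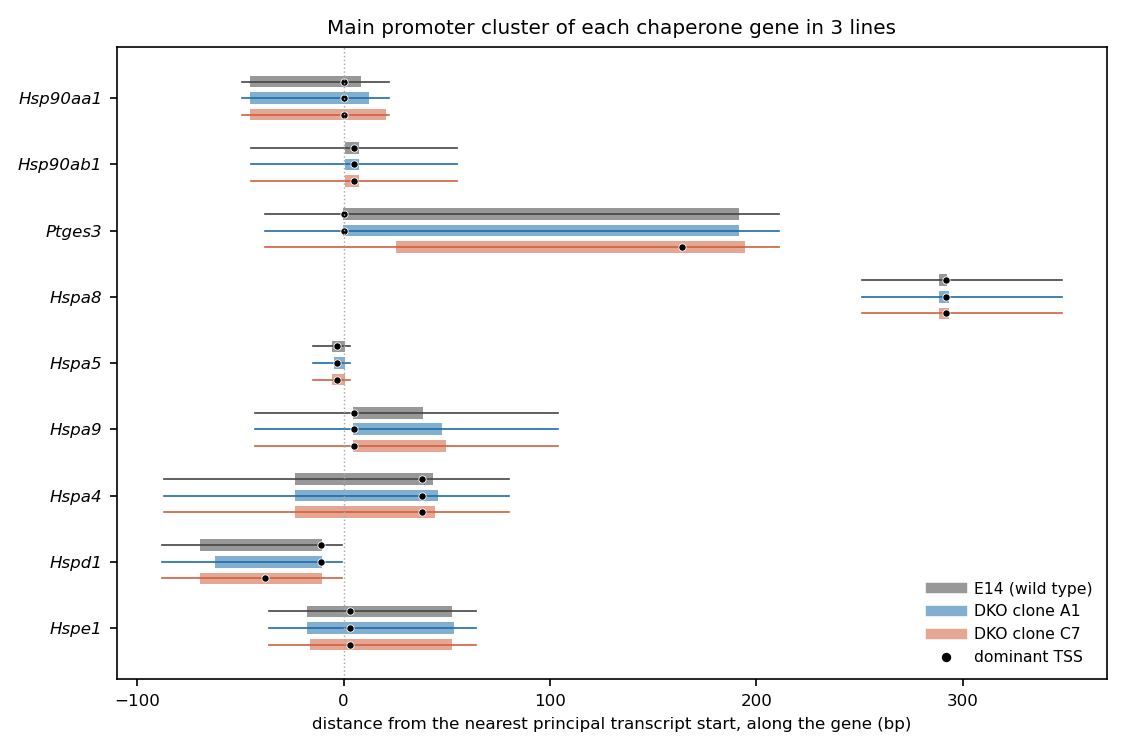
Main promoter cluster of each gene, as distance in bp from the nearest principal transcript start along the gene. Thin lines span the whole cluster, thick bars the interquantile region and dots mark the dominant TSS in E14, A1 and C7. The dots coincide in the 3 lines at 7 genes and lie elsewhere in C7 at Ptges3 and Hspd1.

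Hsp90ab1, which encodes the constitutive cytosolic HSP90, lies on mm10 chromosome 17, minus strand, between positions 45567775 and 45573271. Its main promoter cluster (45573216 to 45573316) peaked at 45573266 and was 7 bp wide between quantiles in all 3 lines. The first exonic clusters lay in exon 2, and every coding exon from 2 to 10 of 11 held at least 1. The widest, in exon 4, spanned 103 bp in each line. Clusters on the opposite strand, from 500 bp upstream of the gene start to the gene end, numbered 9 in E14, 8 in A1 and 9 in C7.

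Hsp90aa1, the stress-inducible cytosolic form, lies on mm10 chromosome 12, minus strand, between positions 110690605 and 110702728. Its main promoter cluster was broad, with interquantile widths of 54 bp in E14, 58 bp in A1 and 66 bp in C7 around an unmoved dominant TSS at 110696395. A second cluster 86 bp downstream, from 110696262 to 110696314, was 53 bp long. Its interquantile width was 1 bp, at 110696309, in all 3 lines. At the start of the longer coding transcript, about 6 kb upstream, clusters with dominant TSSs at 110702684 and 110702655 were also present in each line.

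The TATA box, an AT-rich element that fixes the start site a short way downstream, was looked for before each coding promoter cluster. The letters TATAAA were found in the 40 bases before 0 of the 15 clusters, of 21, whose upstream bases could be read. TATAAG, a variant chosen after the sequences had been seen, was found before 3 of the 8 sharp ones and 0 of the 7 broad ones. Fewer than 80% of the clusters could be read, so these counts are void as a check of all 21 and describe the readable ones only. For these 3 the stretches of 30 bases from the variant onwards are shown, with the variant in capitals and, where the stretch reaches it, the dominant TSS as well.
Hsp90aa1, second cluster (chr12:110696309-110696338, minus strand): TATAAGgccggcgcagggggcggcgcgccA
Hspa5, main cluster (chr2:34772064-34772093, plus strand): TATAAGgcgagtcggcgacggcgcgctcGa
Hspa8, main cluster (chr9:40801244-40801273, plus strand): TATAAGagagagggaagcgggcggaaaccg

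The variant began 29 bases before the dominant TSS at Hsp90aa1, 28 bases before it at Hspa5 and 32 bases before it at Hspa8. The interquantile widths of these clusters in E14 were 1, 6 and 4 bp. Among 32851 RefSeq promoter windows of mouse, each 300 bases long from 250 before to 50 after a gene start on GRCm38.p6, TATAAG or its reverse CTTATA occurs in 7.43% and TATAAA or TTTATA in 13.6%. No variant was found before the broad main clusters of Ptges3, Hspd1 and Hspe1.

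Ptges3 encodes p23, a co-chaperone that holds HSP90 in its ATP-bound state, and lies on mm10 chromosome 10, plus strand, between positions 128058954 and 128077272. It had 1 promoter cluster, the widest of the main promoters, from 128058916 to 128059165, with an interquantile width of 192 bp in E14, 192 bp in A1 and 169 bp in C7. The dominant TSS was at 128058954, the annotated start, in E14 and A1. In C7 it was 164 bp downstream at 128059118, inside the same cluster. The 2 positions are shown with 15 bases before the dominant TSS and 14 after it, with the same 3 bases in capitals.
E14 and A1 (chr10:128058939-128058968, plus strand): gagcctggaaacgGCGattgcgcacgcgcg
C7 (chr10:128059103-128059132, plus strand): ctctccgcgcggtGCAttctgggcatcgag

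Both positions have C before the start, followed by G in the first and A in the second. The interquantile region of C7 began 26 bp downstream of the annotated start and that of the other lines at the start itself. The 4 exonic clusters of Ptges3 were present in all lines, in exons 2 and 6 (coding sequence) and, as a pair, in the 3' UTR of exon 8. The exon 2 cluster at 128068706 to 128068708 peaked at 128068707 in every line, with interquantile widths of 2, 3 and 2 bp. The exon 6 cluster had an interquantile width of 21 bp in E14 and A1, with its peak at 128074250, and of 2 bp in C7, with its peak at 128074251. Every cluster of Ptges3 was present in each line with the same whole width, and separate detection in each line was not tested. The paper shows an intragenic start at Ptges3 as an example of sites sensitive to PWWP2A/B loss. Its claim is a higher signal at existing sites, which positions without signal cannot test. By the numbers of promoter, exonic and intronic clusters in the 3 lines, with every start counted, 15 other genes of 10489 had the same 9 numbers as Ptges3, and the nearest of these in main promoter width were Ubxn1, Lsm12 and Stt3a.

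Hspa8 encodes HSC70, the constitutive cytosolic HSP70, and lies on mm10 chromosome 9, plus strand, between positions 40800984 and 40810087. Its promoter cluster (40801235 to 40801332) peaked in all 3 lines at 40801276, which is 292 bp downstream of the principal transcript start in the annotation, with an interquantile width of 4 bp in E14 and 5 bp in A1 and C7. The introns of Hspa8 hold the small nucleolar RNA genes Snord14c, Snord14d and Snord14e. The nearest dominant TSSs of Hspa8 lay 59, 128 and 411 bp from their starts, and none lay at such a start.

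Hspa5 encodes BiP, the HSP70 of the endoplasmic reticulum, and lies on mm10 chromosome 2, plus strand, between positions 34771970 and 34777547. Its main cluster was only 19 bp long, from 34772080 to 34772098, and peaked at 34772092 in all 3 lines, with interquantile widths of 6, 5 and 6 bp. An endoplasmic reticulum stress element, the site CCAAT, 9 bases and CCACG that is bound by factors of the unfolded protein response, begins 67 bp before that TSS. It is shown with its fixed letters in capitals.
Hspa5 (chr2:34772020-34772049, plus strand): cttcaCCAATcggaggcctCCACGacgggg

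This element occurs on either strand in 39 of the 32851 promoter windows (0.119%). The window of Hspa5 also holds 4 CCAAT boxes (CCAAT or ATTGG, a motif in 37.4% of windows), 1 of which is part of the element. In exon 9 of Hspa5, the coding-sequence cluster around 34775664 had an interquantile width of 42 bp in E14, 75 bp in A1 and 64 bp in C7, the largest widening in a clone among the 9 genes.

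Hspa9 encodes mortalin, the mitochondrial HSP70, and lies on mm10 chromosome 18, minus strand, between positions 34937414 and 34954357. The dominant TSS of its main promoter cluster was 34954352 throughout, and the interquantile width was 34 bp in E14, 43 bp in A1 and 45 bp in C7. Of its 7 exonic clusters by coding transcripts, the one in exon 11 was 44 bp wide in each line and peaked at a different position in each, at 34941902 in E14, 34941937 in A1 and 34941922 in C7.

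Hspa4 encodes an HSP110-type protein that exchanges the nucleotide of HSP70, and lies on mm10 chromosome 11, minus strand, between positions 53259814 and 53300457. Its main promoter cluster had interquantile widths of 67, 69 and 68 bp, with the dominant TSS at 53300419 in every line. It was the only gene of the 9 with intronic clusters when every start was counted, 3 in each line. The coding-sequence cluster of exon 15 had an interquantile width of 46 bp in E14 and 61 bp in both clones.

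Hspd1 and Hspe1 encode HSP60 and its lid HSP10 and are transcribed away from each other on chromosome 1, Hspd1 on the minus strand from 55077835 to 55088243 and Hspe1 on the plus strand from 55088132 to 55091307. Their main promoter clusters overlapped by 17 bp on opposite strands in all 3 lines. The dominant TSSs were 100 bp apart in E14 and A1, at 55088035 for Hspd1 and 55088135 for Hspe1. In C7 the dominant TSS of Hspd1 was at 55088062, which left 73 bp between them. The stretch between the starts holds 3 overlapping inverted repeats of GAA and TTC, a motif bound by heat shock factors. They are in capitals in the following sequence.
Hspd1 and Hspe1 (chr1:55088053-55088082, plus strand): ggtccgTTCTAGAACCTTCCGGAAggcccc

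The overlapping repeats span 55088059 to 55088076, inside the main cluster of Hspd1. They end 59 bp before the dominant TSS of Hspe1 in all lines. The dominant TSS of Hspd1 was 24 bp beyond them in E14 and A1 and within them in C7. A single inverted repeat, GAANNTTC or TTCNNGAA, which are each their own reverse complement, occurs in 15.1% of promoter windows. The 3 overlapping repeats (TTCNNGAANNTTCNNGAA or GAANNTTCNNGAANNTTC) occur in 8 of 32851 (0.0244%), which include windows of Hspd1 and Hspe1 at the site shown. RefSeq windows were held for 5 of the 9 genes. Of these only Hspd1 and Hspe1 had such a repeat, at the stretch they share, and another Hspd1 window had none. The windows of Ptges3, Hspa4 and Hspa5 had none. The GC box GGGCGG or CCGCCC, found in 35.7% of windows, was in 4 of the 5, all but Hspa4.

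**Figure D5:**
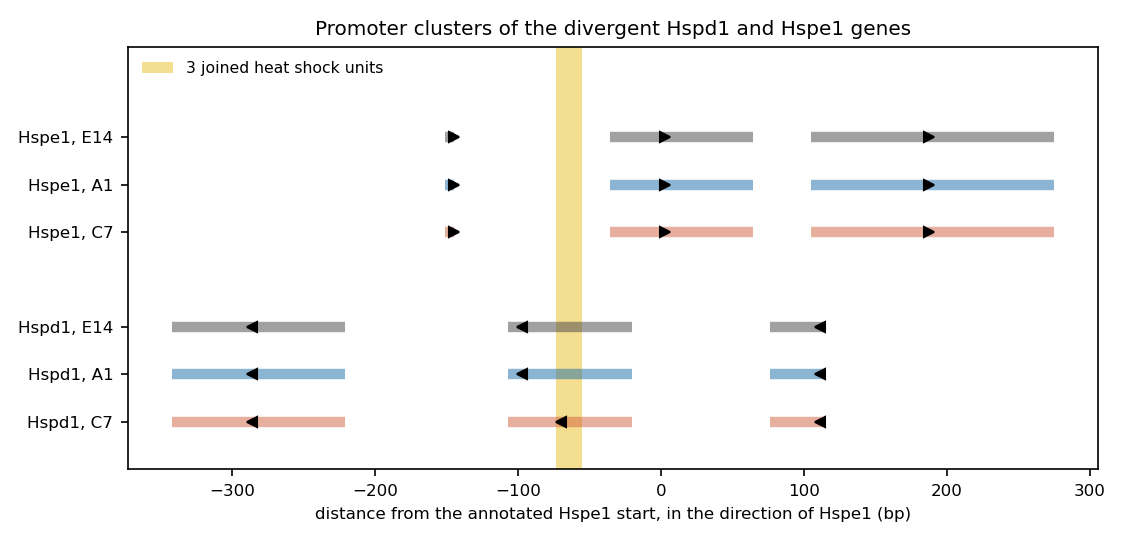
Promoter clusters (bars) and dominant TSSs (arrowheads pointing in the direction of transcription) of Hspe1 and Hspd1 in E14, A1 and C7, by distance in bp from the annotated Hspe1 start. The yellow band, labelled 3 joined heat shock units, marks the 3 overlapping inverted repeats, and the Hspd1 arrowhead lies inside it in C7 only.

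Hspe1 had 2 further promoter clusters and Hspd1 2 further ones, and their dominant TSSs did not move in any line. The interquantile width of the main cluster was 70, 71 and 69 bp at Hspe1 and 59, 52 and 59 bp at Hspd1 for E14, A1 and C7 respectively. In the body of Hspd1, exonic clusters lay in 8 of 12 exons, 4 of them in exon 3. No coding gene of 10489 had the same 9 numbers of clusters as Hspd1, and the nearest were Smc1a, Pnn and Zc3h13, which differed by 4, 7 and 8 clusters summed over the 9 numbers.

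The chaperone clusters of E14 were all found in the clones. By an overlap of at least 1 bp, 100 of 100 were present in A1 and 100 of 100 in C7. Each of these 100 had the same whole width in every line. Whether bounds were set separately in each line was not tested, so overlap cannot show separate detection in each. Over the genome, 0.709% of E14 clusters had no partner in A1 and 0.749% none in C7. In the other direction, 1 of 101 A1 clusters and 2 of 102 C7 clusters were absent from E14, against 1.11% and 0.776% of all clusters. Between the clones, 101 of 101 A1 clusters were found in C7, where 1.17% of all A1 clusters had no partner, and 1 of 102 C7 clusters was absent from A1, against 0.803%. The clusters absent from E14 were a 1 bp cluster at 45569792 in exon 7 of Hsp90ab1, present in both clones, and a 1 bp cluster at 55079222 in exon 10 of Hspd1, present in C7 only. Both lie in coding sequence and both follow GG, as the stretches around them show, with capitals as before.
Hsp90ab1, exon 7 (chr17:45569778-45569807, minus strand): agttggaattcagGGCattgctcttcattc
Hspd1, exon 10, read across a splice junction: gttgaaggttggaGGAacaagtgatgttga

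The dominant TSS was at another position than in E14 for 22 of the 100 clusters in A1 (22.0%, 95% Wilson interval 15.0% to 31.1%) and for 26 in C7 (26.0%, 18.4% to 35.4%). Over all clusters shared with E14 the shares were 23.8% and 21.1%, within these intervals. The intervals cover counting error only and treat clusters of the same gene as independent, so they are no test of a difference. Both comparisons use the same E14 track. By coding transcripts, 3 of 21 promoter clusters moved in A1 (background 21.2%) and 2 of 21 in C7 (background 18.9%), and 19 of 79 exonic or intronic clusters moved in A1 (background 27.0%) and 24 of 79 in C7 (background 23.3%). Between the clones it differed at 28 of 101 clusters (27.7%, background 25.2%). In all, 63 of the 100 clusters had the same dominant TSS in the 3 lines. The longest moves outside promoters were of 35 bp in exon 11 and 29 bp in exon 13 of Hspa9, both in A1. At Hspa8 exon 5 the dominant TSS lay 28 bp upstream of its E14 position 40803524, at 40803496, in both clones. Moves of more than 5 bp numbered 9 in A1 (background 11.7%) and 15 in C7 (background 10.4%).

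The interquantile width differed from E14 at 28 of the 100 clusters in A1 (background 30.8%) and at 30 in C7 (background 29.2%). It was wider at 18 and narrower at 10 in A1, where the backgrounds were 20.3% and 10.5%. In C7 it was wider at 14 and narrower at 16, with backgrounds of 18.5% and 10.6%. These shares lie near those of all clusters, and without replicates it cannot be said which of the single changes exceeds the spread between libraries.

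Clusters on the opposite strand, from 500 bp upstream of each gene start to the gene end, numbered 36 in E14, 36 in A1 and 37 in C7. Most of them were at Hsp90ab1, Hsp90aa1 and Hspd1 (9, 6 and 6 in E14). Those counted at Hspd1 and at Hspe1 include promoter clusters of the other gene of this divergent pair.

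Other chaperones and co-chaperones were taken from a list of 60 genes found in the annotation. A main promoter cluster was present for 56 of them in each line, and 11 of these (19.6%, background 13.2%) had an exonic cluster in E14 with every start counted, holding 27 such clusters in each of the 3 lines. By coding transcripts it was 16 (28.6%, background 14%). None had a different number of exonic clusters in both clones. With at least 3 exonic or intronic clusters, Hsp90b1, the HSP90 of the endoplasmic reticulum (10 exonic clusters in each line), and St13, an HSP70-binding cofactor (5 in each line), stood out. The main promoter cluster of Hsp90b1 had an interquantile width of 9 bp in E14, 13 bp in A1 and 9 bp in C7, and that of St13 12 bp in every line. Sharp main promoters numbered 12 of the 56 in E14 (21.4%, background 21.2%). The 11 genes analysed here of TRiC, the cytosolic chaperonin, and of prefoldin had a main promoter cluster each, and 2 of them, Cct5 and Cct7, had 1 exonic cluster with every start counted. The TRiC gene Cct6a was not analysed here.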

How the data were processed

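CAGE-seq of nuclear RNA covered 3 E14, 2 A1 and 3 C7 libraries. The authors mapped reads to mm10 with STAR 2.4.2a, kept unique alignments, pooled replicates per line and obtained tag clusters in CAGEr. The submitters' processing notes also name SAMtools 1.3 and bedtools 2.17.0. The deposited clusters give positions only, as start, end, dominant TSS and interquantile blocks, and each deposited score is 0. Depth per cluster was therefore not analysed here.

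Clusters were placed by dominant TSS with GENCODE M21 on the same assembly, as promoter (at most 500 bp from a same-strand transcript start), then exonic, then intronic. Alternatives were windows of 100 and 1000 bp, protein-coding transcripts only, a minimum width of 3 bp, midpoints, either strand and other overlap rules. Placement was checked on random positions near annotated starts or in exons, and the interquantile function on simulated blocks. The overlap function was checked only on E14 clusters matched to themselves. The members and the gene lists were chosen with earlier results of these data known. The 9 genes are all named, and other pathway genes where they had at least 3 exonic or intronic clusters in E14 or changed alike in both clones. Cct5 and Cct7 were named after their values were seen. Sequences come from GENCODE M21 transcripts and RefSeq promoter windows. Windows were held for Ptges3, Hspa4, Hspa5, Hspd1 and Hspe1. Python 3.11.15, NumPy 2.4.6, SciPy 1.17.1 and Matplotlib 3.10.9 were used.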

Additional observations from a re-analysis of the deposited data

How the results depend on the processing

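No paired analysis was possible because the libraries of each line were merged before deposition, and for the same reason no replicate could be left out. In E14, A1 and C7 the promoter clusters of the 9 genes (54, 55 and 55) became 27, 28 and 27 with a window of 100 bp and 21 in each with protein-coding transcripts only. Exonic clusters (43, 43 and 44) became 66, 67 and 68 with 100 bp, 28, 28 and 29 with 1000 bp, and 71, 72 and 73 with coding transcripts. Intronic clusters (3 in each) became 6, 5 and 6 with 100 bp, 8 in each with coding transcripts and 1 in each with a width of at least 3 bp. The median main promoter width became 101 bp in each line when the whole cluster was measured. The share of coding genes with an exonic or intronic cluster (20.9% in E14) was 12.1% in each line over all coding genes, 30.2%, 30.4% and 30.3% with 100 bp, and 19.1%, 19.2% and 19.1% with 1000 bp. Counted by the same dominant TSS, 78 E14 clusters were found in A1, 74 in C7, and 73 A1 clusters in C7. Moves of more than 5 bp numbered 9 in A1 against E14, 15 in C7 against E14 and 15 in C7 against A1, where 28 moved at all. These changes follow from how each alternative counts. The deposited positions carry no depth, so a cluster absent from a line may have been below detection there.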
